A study of Saccharomyces cerevisiae with 5 samples.

Results

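The deletion strains of the peroxisome were followed across 5 two-colour tag arrays: the strains of peroxisome biogenesis and inheritance genes, and the strains of the genes for fatty acid oxidation inside the organelle. They were chosen by gene symbol from the platform annotation, as the measured PEX genes other than PEX19 and PEX29 plus a list of beta-oxidation, glyoxylate cycle and inheritance genes. This gave 41 strains of the 5444 measured, 27 of them in biogenesis and 14 in oxidation, and all 41 matched a gene table of the yeast reference by gene identifier. FAA2, on the same list, was not analysed here. The rule itself uses no measured value.

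Each strain is a diploid Saccharomyces cerevisiae strain that lacks 1 copy of 1 gene and keeps the other, and it can be identified in a mixture by 2 short DNA barcodes called UPTAG and DNTAG. Strains grown on YPD agar were pooled and frozen, and barcodes were amplified from the genomic DNA of each pool with Cy3-labelled or Cy5-labelled primers. The design names Pool A and Pool B, in which 94 strains were put at unequal amounts and the remaining strains at equal amounts. Those 94 strains were put into Pool B either undiluted or at 1:8 or 1:64, and were then diluted further for Pool A by 0.33 to 5 log2 units or left out of it. Which strains these were is not given in the sources used here, so no member could be assigned to them. Pool A was in both channels of 3 arrays (self-self replicates 1 to 3) and Pool B in both channels of 1 array, while 1 mixed array had Pool A in Cy3 and Pool B in Cy5. All groups shared the same strain collection, and none had a drug or a growth selection named in the labels.

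The deposited value of a spot is the log2 ratio of both channels. Its direction is not stated, and a positive value is called likely, no more, to mean more Cy5, that is more Pool B signal on the mixed array. The basis is that the design diluted every unequal strain further in Pool A. In addition, the mixed array differed from the Pool A self-self mean by at least 2 log2 units in both tags of some strains. Of these strains 14 were positive in both tags and 2 negative in both. The median over the named spots was subtracted on each array, since these medians ran from -0.77 on the Pool B array to 0.07 on Pool A replicate 2. Each strain has a spot, or an averaged run of spots, in 2 blocks of the array, taken as its 2 tags and called the first and the second tag, and a strain's value is the mean of both. Over the 18794 named spots the Pool A arrays correlated with each other at Pearson's r of 0.83 to 0.91, with the mixed array at 0.51 to 0.65 and with the Pool B array at 0.27 to 0.36. Precision is limited by how few arrays there are: a strain's difference had a median standard error (SE) of 0.20 log2 units, and the 3 Pool A arrays alone supplied the residual spread. In limma each strain's variance is drawn toward that of all strains, here with 23.76 prior against 2 residual degrees of freedom. The SE and p-value of a strain therefore rest mostly on the spread over all strains, and little on its own 3 Pool A values. Nothing in the labels says that these arrays came from separate cultures, and the p-values therefore reflect array-to-array spread alone, which may be technical.

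Peroxisomes are organelles bounded by a single membrane that import folded proteins from the cytosol. Receptors bind cargo by a targeting signal, PTS1 at the carboxyl end or PTS2 near the amino end, dock at the membrane, release the cargo and are returned to the cytosol by ubiquitin-dependent export. In yeast the organelle is the site of fatty acid beta-oxidation, in which acyl-CoA is shortened stepwise to acetyl-CoA with hydrogen peroxide as a by-product. Most of these genes are needed for growth on oleate and dispensable on glucose, the carbon source of YPD.

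The first comparison asked whether the members' barcodes stood in a different ratio on the mixed array than on the arrays where both channels held Pool A. No member was called positive and 6 were called negative at a Benjamini-Hochberg adjusted p under 0.05 in the limma fit over all 5444 strains. The called strains were those of the import genes PEX18 and PEX5, the size regulator PEX31, the adenine nucleotide carrier ANT1, the thioesterase TES1 and catalase A, CTA1, with differences from -1.19 to -0.65 log2 units. They make up 14.6% of the 41 members, whereas 5.84% of all strains were called negative and 1.54% positive in the same comparison. At an unadjusted limma p under 0.05 the counts were 0 positive and 10 negative. The share of all strains at that cut was not counted, so these counts have no background to be read against. The count of negative calls at the adjusted p moved with the choice of arrays, and so did that of all strains. Without Pool A replicate 2 it was 2, beside 2.42% of all strains called negative, and with all 4 self-self arrays as the reference it was 0, beside 0.110%. It was also 2 without centring, beside 3.60%, and with all arrays scaled to the same spread, beside 3.05%.

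**Figure D1:**
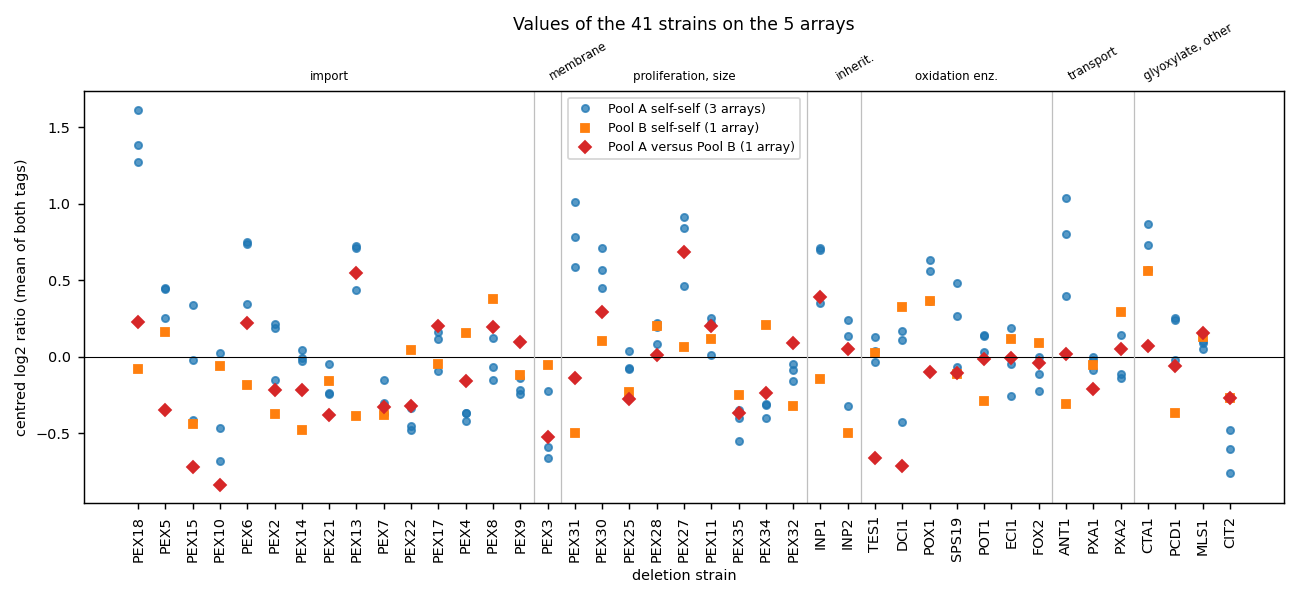
Centred log2 ratio (vertical axis, mean of both tags) of each of the 41 strains, grouped by role, on the mixed array and the self-self arrays of Pool A (3) and Pool B (1); each point is 1 array. PEX18 stands highest on the Pool A arrays, between 1.27 and 1.61, and lies at 0.23 on the mixed array and -0.08 on the Pool B array.

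The import machinery held the member furthest from 0. PEX18 is a co-receptor that works with PEX7 in importing PTS2 proteins. Its values were 1.27, 1.61 and 1.38 on Pool A replicates 1 to 3 (mean 1.42 ± 0.17, SD, n = 3), -0.08 on the Pool B array and 0.23 on the mixed array. The mixed value lay below all 3 Pool A arrays and above the Pool B array. The difference from Pool A was -1.19 ± 0.20 (SE; limma adjusted p = 0.000232). PEX21, the other co-receptor of PEX7, differed by -0.20 ± 0.19, and PEX7 itself, the PTS2 receptor, by -0.05 ± 0.19, neither of them called.

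PEX5 is the receptor for PTS1 cargo. It read 0.44, 0.45 and 0.25 on the Pool A arrays (mean 0.38 ± 0.11, SD, n = 3), 0.16 on the Pool B array and -0.35 on the mixed array. All 4 self-self arrays were positive and the mixed array was negative, without overlap. The difference was -0.73 ± 0.19 (SE; limma adjusted p = 0.0194). PEX9, a PTS1 receptor for a subset of cargo, lay on the other side of 0, at 0.30 ± 0.19, and was not called (limma adjusted p = 0.378).

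The other 10 strains of the import machinery were not called and spanned -0.69 to 0.23. PEX15, which anchors the receptor-export ATPase at the membrane, came closest to the threshold at -0.69 ± 0.23 (limma adjusted p = 0.0599). PEX6, a subunit of that ATPase, stood at -0.39, and the RING-finger ubiquitin ligases PEX10 and PEX2 at -0.46 and -0.30. The docking proteins PEX14, PEX13 and PEX17 stood at -0.22, -0.07 and 0.14. On the positive side were PEX8, which links docking proteins to the ligases, at 0.23, the ubiquitin-conjugating enzyme PEX4 at 0.23 and its membrane anchor PEX22 at 0.10. Over the class of 15 strains the median difference was -0.20 log2 units, beside -0.06 over all strains.

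PEX3, an integral membrane protein needed for membrane protein insertion and peroxisome formation, was among the 3 members nearest 0. It read -0.59, -0.22 and -0.66 on the Pool A arrays, -0.05 on the Pool B array and -0.53 on the mixed array. The mixed value fell inside the Pool A range, and the difference was -0.04 ± 0.20 (SE).

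Among the 9 regulators of peroxisome number and size, PEX31 was called. Its values were 0.59, 1.01 and 0.78 on the Pool A arrays (mean 0.79 ± 0.21, SD, n = 3), -0.50 on the Pool B array and -0.14 on the mixed array. As for PEX18, the mixed array stood below Pool A and above Pool B. The difference was -0.93 ± 0.20 (SE; limma adjusted p = 0.00387). PEX31 belongs to a family of membrane proteins with PEX28, PEX30 and PEX32, whose strains differed by -0.15, -0.28 and 0.18 and were not called. The proliferation factors of the PEX11 family, PEX11, PEX25 and PEX27, stood at 0.04, -0.24 and -0.06, and PEX34 and PEX35, which also affect peroxisome number, at 0.11 and 0.06. The class median was -0.06, equal at 2 decimals to that of all strains.

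Both inheritance genes stayed within the Pool A range on the mixed array. INP1, which tethers peroxisomes in the mother cell, read 0.35, 0.71 and 0.70 on the Pool A arrays, -0.14 on the Pool B array and 0.39 on the mixed array, a difference of -0.19 ± 0.20 (SE; limma adjusted p = 0.621). INP2, the receptor for the myosin that carries peroxisomes into the bud, read -0.33, 0.14 and 0.24 on the Pool A arrays, -0.50 on the Pool B array and 0.05 on the mixed array, a difference of 0.03 ± 0.21 (SE). Neither INP1 nor INP2 was called.

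In beta-oxidation, 1 of 7 enzyme strains was called. TES1 encodes the peroxisomal acyl-CoA thioesterase. It lay close to 0 on all 4 self-self arrays, at 0.04, 0.13 and -0.04 on Pool A (mean 0.04 ± 0.08, SD, n = 3) and 0.02 on Pool B, and at -0.66 on the mixed array. The mixed array stood apart from the others by more than their whole range. The difference was -0.71 ± 0.19 (SE; limma adjusted p = 0.0226).

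POX1 and DCI1 missed the threshold by little. POX1, the acyl-CoA oxidase of the first step of the cycle, read 0.63, 0.36 and 0.56 on the Pool A arrays, 0.37 on the Pool B array and -0.10 on the mixed array, a difference of -0.62 ± 0.20 (SE; limma adjusted p = 0.0524). DCI1, a member of the enoyl-CoA isomerase family, read -0.43, 0.17 and 0.11 on the Pool A arrays, 0.32 on the Pool B array and -0.72 on the mixed array, a difference of -0.67 ± 0.22 (SE; limma adjusted p = 0.0607). In both strains the mixed array was the lowest of the 5. ECI1, the family's enoyl-CoA isomerase for unsaturated fatty acids, read -0.26, 0.19 and -0.05 on the Pool A arrays, 0.12 on the Pool B array and -0.01 on the mixed array, a difference of 0.03 ± 0.20 (SE).

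The remaining enzymes of the cycle were not called. SPS19, the dienoyl-CoA reductase, stood at -0.34, POT1, the thiolase of the last step, at -0.12, and FOX2, the multifunctional enzyme of the middle steps, at 0.07. The median of the 7 enzymes was -0.34 log2 units, beside -0.06 over all strains. In 5 of the 7 the mixed array lay below all 3 Pool A arrays and in none above them, beside 38.6% and 27.4% of all strains.

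ANT1 exchanges adenine nucleotides across the peroxisomal membrane and so supplies ATP for fatty acid activation inside. It read 0.40, 1.04 and 0.80 on the Pool A arrays (mean 0.75 ± 0.33, SD, n = 3), -0.31 on the Pool B array and 0.02 on the mixed array. Its spread among the Pool A arrays was wide, and the mixed value lay between Pool A and Pool B. The difference was -0.73 ± 0.22 (SE; limma adjusted p = 0.0387). PXA1 and PXA2, the subunits of the ABC transporter that brings in long-chain acyl-CoA, differed by -0.17 and 0.09 and were not called.

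CTA1, the catalase that removes the hydrogen peroxide of beta-oxidation, read 0.73, 0.87 and 0.57 on the Pool A arrays (mean 0.72 ± 0.15, SD, n = 3), 0.56 on the Pool B array and 0.07 on the mixed array. The mixed array was the lowest of the 5. The difference was -0.65 ± 0.20 (SE; limma adjusted p = 0.0406). CIT2, the peroxisomal citrate synthase, had the highest difference of all members at 0.34 ± 0.20 and was not called (limma adjusted p = 0.317). MLS1, malate synthase of the glyoxylate cycle, stood at 0.08, and PCD1, which hydrolyses coenzyme A, at -0.22.

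**Figure D2:**
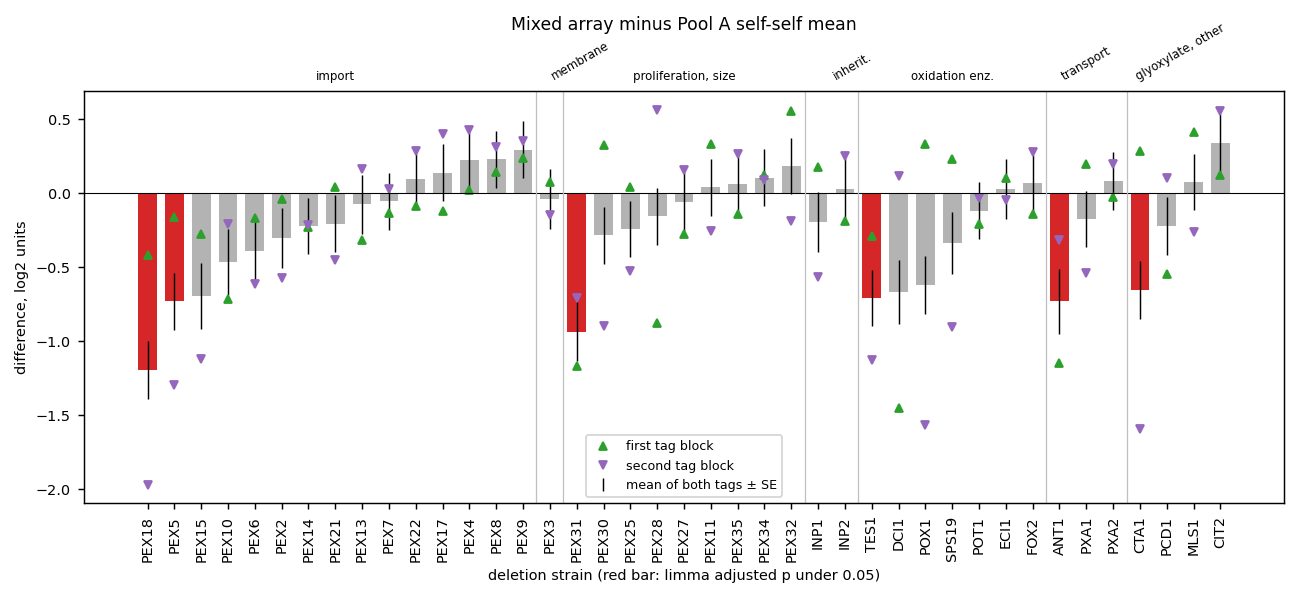
Difference of the mixed array from the mean over 3 Pool A self-self arrays in log2 units (vertical axis) for the 41 strains by role; bars are the mean of both tags with its SE, triangles are single tags, and red bars have a limma adjusted p under 0.05. The 6 red bars are all negative, from -1.19 to -0.65. In CTA1 and POX1 the tags lie on opposite sides of 0, which is common here: 16 of the 41 members had tags of the same sign.

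Biogenesis and oxidation strains were set side by side without a test. The median difference was -0.07 over the 27 biogenesis strains and -0.20 over the 14 oxidation strains, with 3 calls in each. The mixed array lay below all 3 Pool A arrays in 21 of the 41 members, 12 in biogenesis and 9 in oxidation, and above them in 9 members. As a share this is 51.2% below and 22.0% above, to be read against the same 38.6% and 27.4%. Against all 4 self-self arrays the mixed array was lower in 11 members and higher in 4, beside 24.4% and 15.8% of all strains.

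The Pool B array separated the 6 called strains into a pair of patterns of 3 strains each. In PEX18, PEX31 and ANT1 the mixed value fell between the Pool A range and the Pool B value, so it was below Pool A and above Pool B. In PEX5, CTA1 and TES1 the mixed value was below all 4 self-self arrays. Neither position is particular to the called strains. The mixed array lay below all 3 Pool A arrays in 21 of the 41 members and 38.6% of all strains, which covers both positions. In 11 of these members, and in 24.4% of all strains, it lay below all 4 self-self arrays, the second position. The first position holds only the remainder of the 21 members and of the 38.6%. This sorting is a description of 1 Pool B array and 1 mixed array, and neither has a replicate.

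Both tags of a strain read the same cells, so each tag was also fitted alone, over 10888 tags. Of the 82 member tags, 12 were called negative and 0 positive, 14.6% beside 6.53% of all tags negative and 1.87% positive. At an unadjusted limma p under 0.05, 3 member tags were positive, and the share of all tags at that cut was not counted. The 12 tags belonged to 12 different strains, 6 in biogenesis and 6 in oxidation, so in no member were both tags called negative. Over all strains 0.551% had both tags called negative and 0.147% had tags called in opposite directions, a class that also held no member. Without Pool A replicate 1 no member tag was called, but of all 10888 tags too only 1 was then called negative and 11 positive. With all 4 self-self arrays as the reference the count was likewise 0, with 27 of all tags called negative and 45 positive.

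In each of the 6 called strains 1 tag was called and the other was not. PEX18 differed by -0.42 in the first tag and by -1.97 ± 0.26 (SE) in the second. PEX5 differed by -0.16 and -1.30, TES1 by -0.29 and -1.13, and ANT1 by -1.15 and -0.31. CTA1 had its tags on opposite sides of 0, at 0.29 in the first and -1.59 in the second. PEX31 came nearest to a shared shift, with -1.16 in the first tag and -0.70 in the second, the first alone called.

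In 6 further strains 1 tag was called and the strain was not. The second tag of POX1 differed by -1.57 ± 0.25 (SE; limma adjusted p = 0.000177) and its first by 0.33, the widest gap of all members at 1.90 log2 units. That second tag read 1.12, 0.83 and 1.16 on the Pool A arrays, 0.25 on the Pool B array and -0.53 on the mixed array, so the groups did not overlap. DCI1 was the reverse case, with -1.45 in the first tag and 0.12 in the second. The first tag of DCI1 read -0.73, -0.38 and -0.63 on the Pool A arrays, 0.56 on the Pool B array and -2.03 on the mixed array, which was the lowest value there. The other called tags were the second of PEX15 at -1.12, of PEX30 at -0.89 and of SPS19 at -0.90, and the first of PEX28 at -0.87. The opposite tags of PEX28, PEX30 and SPS19 were positive, at 0.56, 0.33 and 0.23.

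Of the 12 called tags 8 were in the second block and 4 in the first, 19.5% and 9.76% of the member tags there. Over all strains 7.75% of the tags in the second block and 5.31% in the first were called negative. The tags of a member had differences of the same sign in 16 of 41 members, and in 2822 of all 5444 strains. As a description over points that share their 5 arrays, Pearson's r between first-tag and second-tag differences was -0.11 over the 41 members and 0.23 over all strains.

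The self-self arrays show where the members' channels differed although both held the same pool. Over the 3 Pool A arrays 11 members were called above 0 and 8 below, 26.8% and 19.5%, beside 24.3% and 20.6% of all strains in the limma fit. Without centring 8 members were above 0 and 3 below, beside 7.94% and 7.38% of all strains. PEX18 had the highest mean of the members at 1.42, followed by PEX31 at 0.79 and ANT1 at 0.75. These are the 3 called members whose mixed value lay between Pool A and Pool B. The differences of the mixed and Pool B arrays both subtract this mean, so a high mean and a negative difference are not separate observations. PEX27 came next at 0.74 and was not called on the mixed array. CTA1 followed at 0.72 and was called, with its mixed value below all 4 self-self arrays. CIT2 had the lowest mean at -0.61, followed by PEX3 at -0.49 and PEX35 at -0.43.

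By tag the self-self departures were larger and tied to the block. Over the Pool A arrays 25 member tags were called above 0 and 18 below, beside 25.7% and 22.5% of all tags. In the first block 7 member tags were above and 16 below. In the second, 18 were above and 2 below. All strains were split in the same way, with 13.9% above and 41.4% below in the first block and 37.6% above and 3.73% below in the second. The member medians were -0.19 in the first block and 0.28 in the second, beside -0.20 and 0.18 over all strains.

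In 9 of the 41 members the tags were called in opposite directions on the Pool A arrays, 22.0% beside 14.3% of all strains. Among these, the tags of PEX10 read -1.40 in the first block and 0.65 in the second, and those of SPS19 -0.69 and 1.14, as means of 3 arrays. INP1 is not among them: its tags read -0.27 and 1.44, and the first was not called. PEX18 was high in both, at 0.92 and 1.93. CIT2 was low in both, at -0.84 and -0.39.

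**Figure D3:**
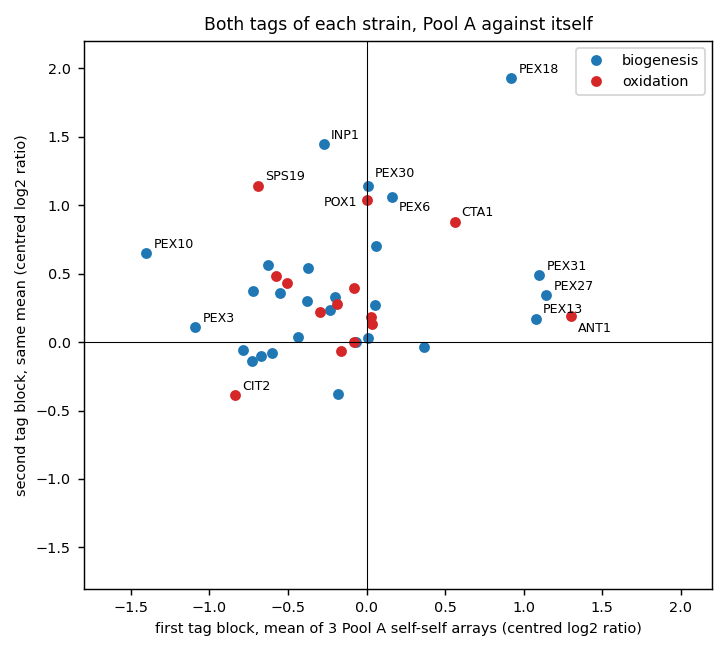
Centred log2 ratio averaged over 3 Pool A self-self arrays in the first tag block (horizontal axis) and in the second (vertical axis), 1 point per strain, coloured by biogenesis or oxidation. PEX18 lies far from 0 in both tags (0.92 and 1.93), while PEX10 and SPS19 lie on opposite sides of 0 in their tags.

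The Pool B self-self array was set against the same 3 Pool A arrays. These contrasts share the Pool A arrays, so calls in both are not separate observations. In addition, the title of the Pool B array begins with another date than those of the other 4 arrays, so pool and title date cannot be told apart. Of the members 2 were called positive and 7 negative, 4.88% and 17.1%, beside 8.54% and 13.3% of all strains. Uncentred arrays gave 0 and 17, beside 0.0918% and 34.8% of all strains, and arrays scaled to the same spread gave 0 and 7, beside 4.02% and 9.06%. Without Pool A replicate 1 the counts were 4 and 13, beside 11.7% and 19.6%. Without replicate 2 or 3 no member was called positive, beside 5.24% and 3.95% of all strains.

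PEX18 differed by -1.50 between the Pool B array and Pool A, PEX31 by -1.29 and ANT1 by -1.06, each larger in size than its difference on the mixed array. PEX13 differed by -1.01 ± 0.20 (SE; limma adjusted p = 0.000919) on the Pool B array and by -0.07 on the mixed array. PEX13 read 0.43, 0.71 and 0.72 on the Pool A arrays, -0.39 on the Pool B array and 0.55 on the mixed array, and thus the Pool B array alone stood apart. The first tag of PEX13 carried this, at -2.01, with the second at -0.01. PEX6, INP1 and PEX27 were also called negative, at -0.80, -0.73 and -0.68, and PEX34 and PEX4 positive, at 0.55 and 0.54.

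With the Pool B array as the reference for the mixed array, 1 member was called positive and 1 negative, beside 2.48% and 5.2% of all strains. These were PEX13, at 0.94 (limma adjusted p = 0.0144), and DCI1, at -1.04 (limma adjusted p = 0.0135). PEX18, PEX31 and ANT1 then stood at 0.31, 0.36 and 0.33, on the other side of 0 from their difference to Pool A.

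Most members, 35 of 41, rest on 1 spot per tag. PEX7, PEX18, POT1, PXA2, MLS1 and PCD1 have 6 spots per tag, a lone spot and a run of 5. In the second tag of PEX18 the difference between mixed array and Pool A ran from -2.01 to -1.92 over its 6 spots, a range narrower than the tag's SE of 0.26. In the first tag of PEX18 they ran from -0.61 to -0.29. The single spots of PEX7 spanned -0.42 to 0.09 in the first tag, a span wider than the tag's difference of -0.14 is from 0.

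Within a run the value depended on the spot's place. On Pool A replicate 3 the last spot exceeded the first by a median of 0.64 log2 units in the first block over all 793 genes with a run, and by 0.56 over the 6 members. On Pool A replicate 1 the medians were 0.14 and 0.22, and on the Pool B array 0.04 and -0.01. For the second tag of PEX18 the first and last spot of the run read 1.58 and 2.33 on Pool A replicate 3, and -0.42 and -0.28 on the Pool B array. The second tag of MLS1 had a lone spot at 0.65 and a run mean of -0.05 on Pool A replicate 3. The lone spot and the run were taken as the same tag by gene name and block, which no sequence was used to check.

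**Figure D4:**
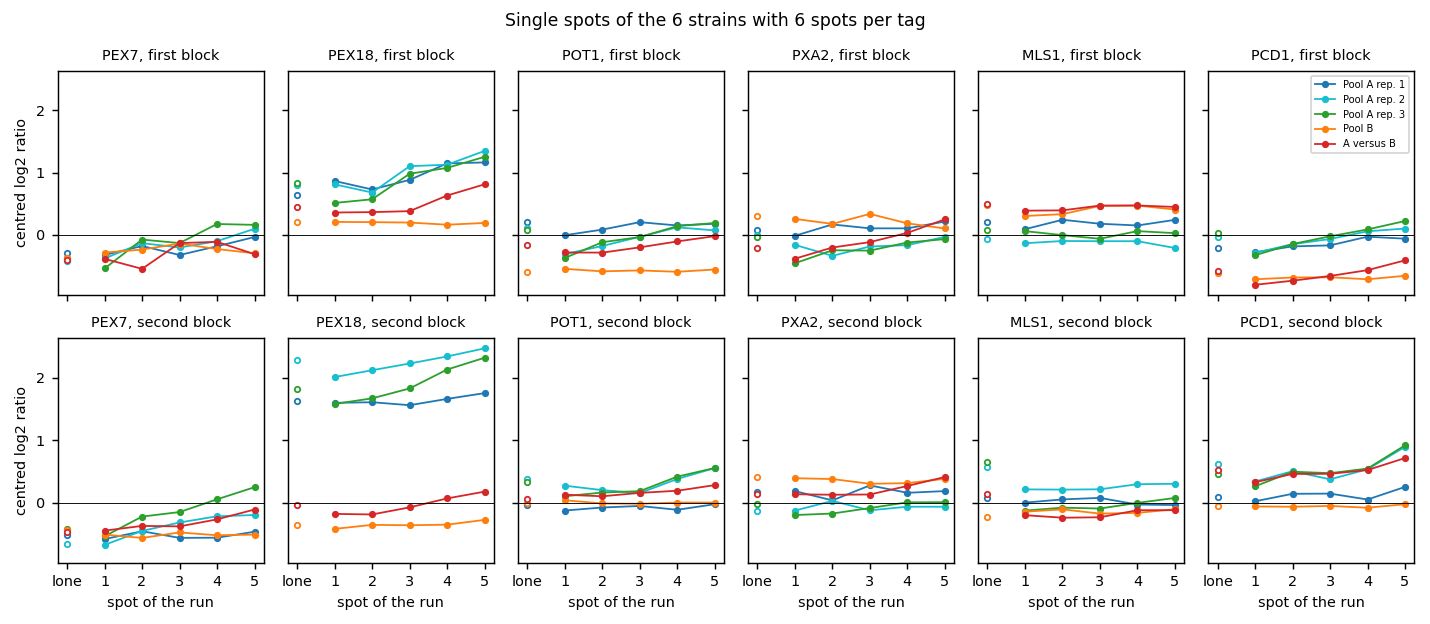
Centred log2 ratios (vertical axis) of the single spots of the 6 strains with 6 spots per tag, by place (horizontal axis), with the tag blocks in separate rows and 1 colour per array. In the second tag of PEX18 the Pool A arrays lie above the Pool B and mixed arrays at every spot, and on Pool A replicate 3 the run climbs from 1.58 to 2.33.

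The members lie on 14 chromosomes. The 5 on chromosome IV, PEX3, PEX5, PEX7, PEX10 and CTA1, had differences between mixed array and Pool A from -0.73 to -0.04. All 5 lay below 0, as did 58.0% of all strains. Of the 5, 2 were called negative, PEX5 and CTA1, beside 5.84% of all strains. A set of 5 strains is too small to describe a chromosome.

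Genes next to the members in metabolism and regulation were read from 6 further lists, covering fatty acid activation, the carnitine shuttle, the glyoxylate cycle, regulators of the oleate response, other peroxisomal enzymes, and peroxisome division and turnover. Of their 32 measured strains 2 were called positive and 2 negative, beside 1.54% and 5.84% of all strains. The negative count is near that background, and the positive count, also 2, is above it. A count of 2 strains is too small to describe the lists. MDH3, the peroxisomal malate dehydrogenase that reoxidises the NADH of beta-oxidation, read -0.06, -0.27 and -0.58 on the Pool A arrays, -0.29 on the Pool B array and 2.78 on the mixed array. Its difference was 3.09 ± 0.21 (SE; limma adjusted p = 1.71e-11), with both tags high, at 2.88 and 3.29. SNF1, the kinase needed to release glucose repression, differed by 1.13 ± 0.19 (SE), with tags at 1.03 and 1.22. Both genes lie on chromosome IV, but so do ADR1 and GPD1 of the same lists. Those differed by -0.02 and -0.29 on the mixed array and were not called.

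ACO1, aconitase, was called negative at -0.95 ± 0.21 (SE; limma adjusted p = 0.00444), with tags at -1.12 and -0.78. FAA4, an acyl-CoA synthetase, was called negative at -0.69 ± 0.19 (SE; limma adjusted p = 0.0268), with tags at -0.59 and -0.80. The furthest strains of the lists with no call were CRC1, the mitochondrial carnitine carrier, at -0.36, and ATG36, the receptor for peroxisome autophagy, at -0.53.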

How the data were processed

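The deposited values are log2 ratios of both channels, 1 per spot, for 22575 spots on 5 arrays. The base of the logarithm follows from the data: taken as log2, 100% of ratios below 1.5 came out with 3 decimals, and 12.0% if taken as log10, within a rounding step of 5e-05 log units. Per the labels' protocols, barcodes were amplified in 50 PCR cycles from about 50 ng of genomic DNA in 20 µl. How the arrays were scanned, background-corrected and normalized is not given in the sources used here. No probe sequence was used here. The platform annotation names 1 gene for 18794 spots and none for 3781.

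Named spots were centred per array, spots of a tag were averaged, and both tags, from blocks offset by 10971 spot numbers, were averaged per strain. The order of UPTAG and DNTAG blocks is not given. Tests used limma 3.58.1 (R 4.3.3; lmFit, contrasts.fit and eBayes) over all strains or all tags, with 3 groups, two-sided, with Benjamini-Hochberg adjustment and calls at an adjusted p under 0.05. The Pool B and mixed arrays, 1 each, were taken to vary as the Pool A arrays do. The fit was tested on simulated data in which all arrays varied as the Pool A arrays do, so that assumption itself was not tested. Gene names and chromosomes came from a RefSeq gene table of the yeast reference, and coordinates were left out since no build is named in the files.

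Members, gene lists and alternatives were chosen with earlier results of these data known. Full values went to each member called on the mixed array, the largest difference in each role, the 3 largest Pool A means, the 3 largest tag gaps and the 3 members nearest 0.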

Additional observations from a re-analysis of the deposited data

Results flagged for a closer look

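On the Pool B self-self array 9 members differed from the 3 Pool A self-self arrays at a limma adjusted p under 0.05, although in both groups the channels of an array held the same pool. These are 22.0% of the members, and 21.9% of all strains were called in that comparison, so the count is at the background. Of the biogenesis strains PEX18 differed by -1.50 log2 units, PEX31 by -1.29, PEX13 by -1.01, PEX6 by -0.80, INP1 by -0.73 and PEX27 by -0.68. PEX4 and PEX34 differed by 0.54 and 0.55. ANT1, the only oxidation strain among them, differed by -1.06. The Pool B group is 1 array, and its title date differs from that of the other 4, so pool and date cannot be told apart.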

How the results depend on the processing

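The 41 strains were refitted under each alternative, and 12 were followed one by one. On the mixed array against Pool A, the count of 6 negative calls became 2 when arrays were not centred, 2 when they were scaled to equal spread, 1 with the Pool B array as the reference (with 1 positive call) and 0 with all 4 self-self arrays as the reference or when both tags had to be called. With all 4 as the reference the spread includes the gap between pools by construction. The count ran from 2 to 7 when 1 Pool A array was left out (2 without replicate 2). No centring moved the median difference of all strains from -0.06 to -0.49. By tag, 12 negative calls became 7 without centring and 0 with all 4 self-self arrays as the reference, ran from 0 (without replicate 1) to 12 with 1 array left out, and quantile normalization gave 1 positive call. Of all tags, 2.28% were called negative without centring and 5.03% positive with quantile normalization. Without replicate 1 almost no tag of any strain was called (1 negative and 11 positive of 10888), so that 0 says nothing about the members.

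On the Pool B array against Pool A, the 2 positive calls became 0 without centring or with scaled arrays, 4 with quantile normalization, 4 and 1 in the first and second block alone, and 0 to 4 with 1 array left out. Of all strains, 14.6% were called positive with quantile normalization, and 11.8% and 5.11% in the first and second block alone. The 7 negative calls became 17 without centring, 11 in the first block alone and 6 to 13 with 1 array left out. Of all strains, 34.8% were called negative without centring and 17.7% in the first block alone. On the Pool A arrays against 0, the 11 positive calls became 7 and 18 in the first and second block alone, and the 8 negative calls 18 and 2, or 3 without centring. All strains moved in the same way, with 14.7% and 35.9% positive and 43.5% and 2.94% negative in these blocks. Without centring 7.38% of all strains were negative. The 25 positive tags became 14 without centring and 16 to 28 with 1 array left out. Of all 10888 tags, 2803 were called positive on the Pool A arrays. That count became 1202 without centring and 1880 to 2763 with 1 array left out.

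Relative to all strains, the biogenesis median moved from -0.01 to -0.14 in the second block alone, and the oxidation median from -0.13 to 0.073 in the first. With the Pool B array as the reference PEX18, PEX31 and ANT1 turned positive (0.31, 0.36 and 0.33), and CTA1 did so in the first block alone (0.29). Apart from alternatives whose own construction is named above, the cause was not tested. Of 13 alternatives with a test, PEX18 and PEX31 were called in 10, PEX5 and TES1 in 7, ANT1 in 5 and CTA1 in 4. Tag-level alternatives and the class medians without PEX18 were added after seeing the data. No paired analysis was possible because the Pool B and mixed groups hold 1 array each.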
